A study of Homo sapiens with 4 samples.

Results

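Long noncoding RNAs (lncRNAs) are transcripts that are not read as a template for a long protein, and the ones described here are those with enough reads in HaCaT keratinocytes to be compared between libraries. They were taken from a table of 55536 gene rows, of which 19258 carry the biotype lncRNA and 7982 of these had a read. A row was kept when its reads over the 4 libraries summed to at least 400, which left 313 lncRNAs. The lncRNAs were chosen by their measured reads, summed over both groups, so the levels below are a description of what was chosen. It did not use the difference between the groups, but a gene near the limit could reach it through its higher group: ENSG00000253154, the lncRNA with the largest increase, had 62 and 55 reads in one group and 175 and 161 in the other. Just outside the limit lay HOTAIRM1 with 397 reads, CAPN10-DT with 399 and LINC00649 with 399. Just inside it lay DHCR7-DT with 402 reads, ZDHHC12-DT with 404 and ENSG00000291075 with 405.

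HaCaT is an established, spontaneously immortalised human keratinocyte line. Polyadenylated RNA was sequenced from 2 libraries labelled NC and 2 libraries labelled TYMP, the latter from a line made to overexpress TYMP, thymidine phosphorylase, stably by lentivirus. RNA was taken after 48 hours from cells in 6-well plates. The labels do not spell out NC, say whether NC cells carried a control virus, or say whether the TYMP line was 1 clone or a pool. No label tells whether the paired libraries of a group are separate cultures, and the p-values therefore reflect the spread among these 4 libraries, which may be technical.

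Each library held between 16209663 and 17000821 reads assigned to genes. TYMP itself had 281 and 264 reads in NC and 1221 and 1100 in TYMP, a 4.30-fold rise (log2 fold change 2.10, SE 0.124, adjusted p = 1.47e-06), in the direction the labels give. The 10 keratinocyte markers looked at, KRT5 and KRT14 among them, all had mean FPKM of 47.5 or more. KRT5, KRT14 and DSG3 rose in the TYMP libraries, by 0.54, 0.36 and 0.45 on the log2 scale. The other 7 did not pass the test described below and lay between -0.02 for KRT17 and 0.27 for DSP. Markers of melanocytes, fibroblasts, immune cells and endothelium stayed at or below 398 reads over all libraries, with TYR, PDGFRA, COL3A1, CD2, AIF1 and LST1 at 0.

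LncRNAs work in several ways. Some scaffold nuclear bodies or bind regulatory proteins, some act on neighbouring genes through their own transcription, and many are hosts whose introns or exons are cut into small nucleolar RNAs (snoRNAs, which guide chemical modification of ribosomal RNA) or microRNAs. They are commonly less abundant than messenger RNAs, and a small number of them can take a large share of the reads. Human epidermis uses several in the choice between proliferation, differentiation and wound closure.

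The 313 lncRNAs together took 0.754% and 0.804% of the NC reads and 0.799% and 0.861% of the TYMP reads. Levels per length, as FPKM (fragments per kilobase of gene and scaled to library size), ran from 0.145 for KCNQ1OT1, a long imprinted antisense RNA, to 166 for NORAD. The median was 2.35 FPKM, against 8.48 for the 9406 protein-coding genes that reached the same number of reads. At or above 1 FPKM there were 263 lncRNAs, and 29 reached 10. By symbol, 71 were antisense RNAs, 36 were divergent transcripts (DT, which start beside a coding gene and run away from it), 44 were intergenic LINC genes, 22 carried a snoRNA host symbol, 11 a microRNA host symbol and 3 an intronic transcript symbol. Another 59 had other symbols and 67 had none.

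NORAD, a cytoplasmic lncRNA that binds PUMILIO proteins, stood first at 150, 168, 165 and 182 FPKM, in the order NC replicate 1, NC replicate 2, TYMP replicate 1, TYMP replicate 2. The groups overlapped, and the difference of 0.11 on the log2 scale did not pass the test (SE 0.0814, adjusted p = 0.600). MIR205HG, the host of the epithelial microRNA miR-205, came next at 61.6, 72.5, 71.2 and 86.6 FPKM, also overlapping. GAS5, a snoRNA host known to accumulate in cells whose growth is arrested, followed at 43.2, 47.2, 42.3 and 44.4 FPKM. Then came NEAT1, which scaffolds paraspeckles, at 32.6, 34.1, 41.7 and 46.9 FPKM, and here both TYMP libraries lay above both NC libraries. Mean levels of GAS5, NEAT1 and SNHG1, at 44.3, 38.8 and 37.7 FPKM, lay close together, and the ranges of the 4 libraries overlapped between neighbours in this order. The next places were held by LINC00370, LNCAROD, IGFL2-AS1 and SNHG29, at means of 33.8, 29.4, 26.7 and 26.4 FPKM. ENSG00000289194, ANKRD10-IT1, ENSG00000290018, LINC02967, UCA1 and FGD5-AS1 completed the first 15, from 23.6 down to 16.1 FPKM.

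**Figure D1:**
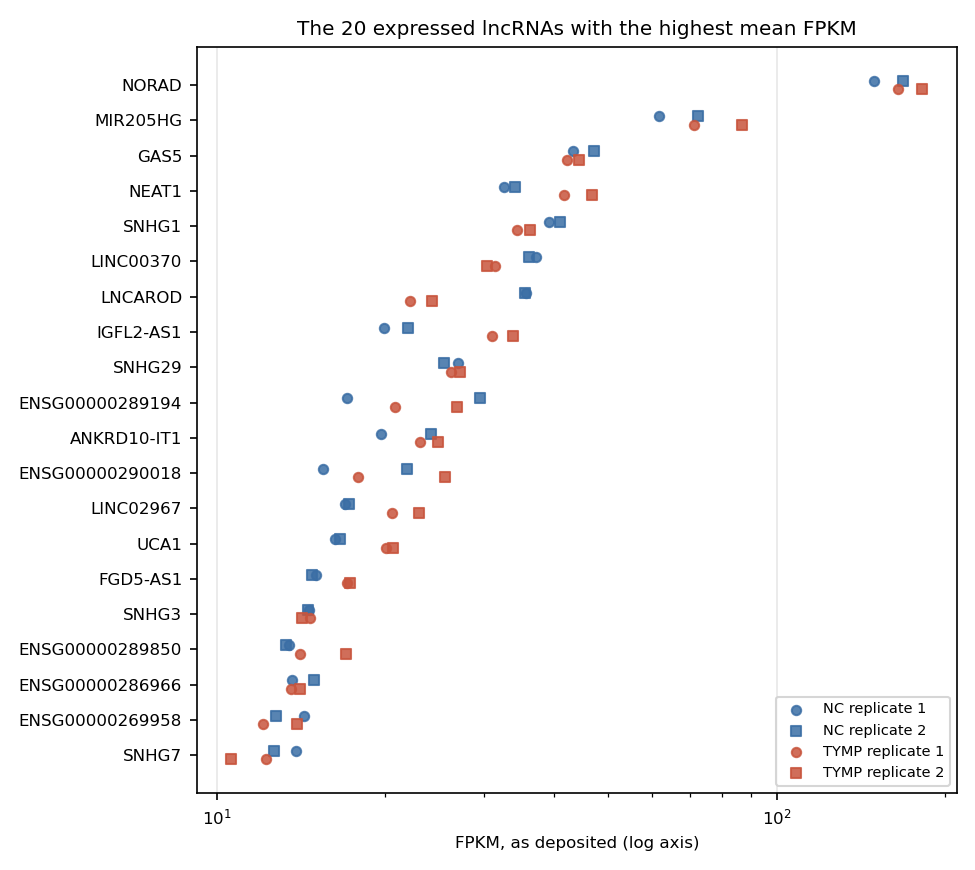
FPKM, as deposited, of the 20 expressed lncRNAs with the highest mean, on a log axis. Each point is 1 library, blue for NC and red for TYMP, circles for replicate 1 and squares for replicate 2. NORAD sits between 150 and 182 FPKM, apart from all others, and the blue and red points of LNCAROD and IGFL2-AS1 do not overlap.

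Reads were concentrated in the first places of this order. NORAD and NEAT1 together held 20.6% and 20.9% of the lncRNA reads in NC and 23.0% and 23.8% in TYMP. The 10 lncRNAs with the most reads held 40.1% and 40.6% in NC and 41.8% and 42.7% in TYMP. The median lncRNA had 727 reads over the 4 libraries. The median standard error of a log2 fold change was 0.171 for the lncRNAs and 0.113 for the protein-coding genes with at least 400 reads. The 58 lncRNAs that GENCODE release 29 does not hold have no position here. Of the 255 that it holds, 141 share exon sequence with another gene, 120 of them with a gene on the opposite strand. No source used here gives the strand setting of the read counting, so at these places reads of the 2 strands cannot be told apart.

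The row of MALAT1, usually among the most abundant nuclear lncRNAs, held only 17, 54, 21 and 35 reads, and that of its antisense partner TALAM1 held 0. MIR22HG, SNHG9 and SNHG28 were also listed at 0, and SNHG25 at 1 read in all. These genes were named after their values were seen, and whether reads that touch overlapping genes were dropped was not tested. TUG1 and TINCR, widely described as lncRNAs, carry the biotype protein_coding in the table and are therefore not among the 313.

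The comparison of TYMP with NC asked which lncRNAs follow TYMP overexpression. All 313 lncRNAs passed the filter on low counts and were tested among 14380 genes in 1 fit (edgeR's quasi-likelihood test, with p adjusted by Benjamini and Hochberg over all genes and 0.05 as the threshold). In that fit 13 lncRNAs, 4.15%, passed, against 3.32% of all tested genes and 4.12% of the tested genes with at least 400 reads. The share of lncRNAs called was thus close to that of all genes above the same minimum, most of which were more deeply covered: the median was 727 reads for the lncRNAs and 3254.5 for the protein-coding genes with at least 400 reads. Higher in TYMP were 8, or 2.56%, against 2.09% of all tested genes and 2.49% of those with at least 400 reads. Lower were 5, or 1.60%, against 1.23% and 1.63%. At least 2-fold and past the threshold were 6, or 1.92%, against 0.946% of all tested genes and 0.683% of those with at least 400 reads. Among the 6, ENSG00000253154, ENSG00000259345, LINC00941 and LINC01204 reached the limit of 400 reads through their higher group. The share of 1.92% is therefore not read as a trait of lncRNAs. The median log2 fold change was 0.03 for the lncRNAs and -0.01 for all tested genes, with lncRNA values between -1.14 and 1.53. The 2 NC libraries and the 2 TYMP libraries did not overlap for 159 lncRNAs, 50.8%, against 43.6% of all tested genes and 44.9% of those with at least 400 reads. Between 2 and 2 libraries, an exact permutation test for a single gene cannot go below p = 0.333.

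**Figure D2:**
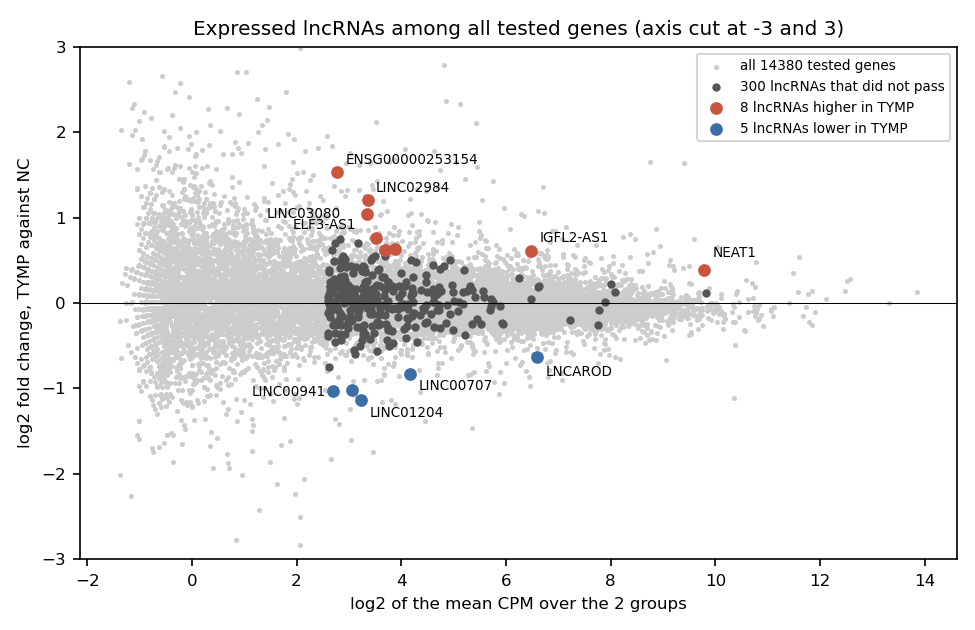
Log2 fold change, TYMP against NC, against the log2 of the mean CPM (counts scaled to library size) of the 2 groups. Grey points are all 14380 tested genes, dark points the lncRNAs that did not pass the test, red points the 8 higher and blue points the 5 lower in TYMP. The vertical axis is cut at -3 and 3, and NEAT1 is the called lncRNA farthest to the right.

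Among the lncRNAs that rose, NEAT1 was the most abundant. It lies at chr11:65422774-65445540 (GRCh38, plus strand) and shares no exon with another annotated gene. NEAT1 had 12625 and 12908 reads in NC and 15395 and 17848 in TYMP. Both TYMP libraries lay above both NC libraries, though by a small factor. Its level was 765 ± 19.9 CPM in NC and 1003 ± 67.7 CPM in TYMP (SD, n = 2), a 1.31-fold rise (log2 fold change 0.39, SE 0.0779, adjusted p = 0.0141). Without TYMP replicate 2 the change was 0.32 and did not pass (adjusted p = 0.160). On the deposited FPKM values it was 0.40 and did not pass (adjusted p = 0.0843).

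Transcripts of the proteins that NEAT1 assembles into paraspeckles, among them those of NONO, SFPQ and PSPC1, did not rise with it. Protein levels were not measured. Of 15 such genes 14 were tested and none was called in either direction, against 3.32% of all tested genes. All 14 had negative values, with a median of -0.07 on the log2 scale, against 7326 negative values among 14380 tested genes. With upper quartile scaling, with library totals alone or on FPKM values 13 of the 14 were negative, and between 11 and 12 were when 1 library was left out.

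IGFL2-AS1, an antisense RNA of the IGFL2 locus at chr19:46189166-46203083 (minus strand), had 1126 and 1218 reads in NC and 1676 and 1888 in TYMP. The groups were well apart. It rose 1.53-fold, from 70.3 ± 4.63 to 108 ± 5.07 CPM (SD, n = 2; log2 fold change 0.61, SE 0.0945, adjusted p = 0.00243), and passed under each of the 15 alternatives in which it was tested.

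The 3 largest increases belonged to lncRNAs of low level. ENSG00000253154, annotated only as a transcript of chr8:85833377-85951083 (plus strand), had 62 and 55 reads in NC and 175 and 161 in TYMP. That is 3.51 ± 0.260 against 10.2 ± 0.975 CPM (SD, n = 2), a 2.90-fold rise (log2 fold change 1.53, SE 0.208, adjusted p = 0.00120). Both TYMP libraries lay far above both NC libraries, and the call held under each of the 15 alternatives in which it was tested. LINC02984, an intergenic lncRNA at chr8:53515171-53523931 (minus strand), had 104 and 103 reads in NC and 221 and 254 in TYMP. It rose 2.31-fold (log2 fold change 1.21, SE 0.169, adjusted p = 0.00151), and on FPKM values its adjusted p was 0.0504. Its exons overlap those of the unnamed gene ENSG00000254204. LINC03080, at chr15:99427009-99431028 (minus strand), had 109 and 112 reads in NC and 212 and 241 in TYMP. It rose 2.06-fold (log2 fold change 1.05, SE 0.169, adjusted p = 0.00350), and no function is given for it or for the other 2 in the table.

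ELF3-AS1 and CCDC18-AS1 rose by smaller factors. ELF3-AS1, at chr1:201995696-202010463 (minus strand), had 140 and 144 reads in NC and 205 and 275 in TYMP, so that its TYMP libraries lay above NC but differed from each other. It rose 1.70-fold (log2 fold change 0.76, SE 0.174, adjusted p = 0.0292). Without TYMP replicate 2 the value was 0.58 (adjusted p = 0.279), and with DESeq2 the adjusted p was 0.0836. CCDC18-AS1, at chr1:93262186-93346025 (minus strand), had 188 and 198 reads in NC and 270 and 327 in TYMP, without overlap. It rose 1.56-fold (log2 fold change 0.64, SE 0.151, adjusted p = 0.0364), with adjusted p = 0.280 without TYMP replicate 2 and 0.114 with DESeq2. ENSG00000261786, at chr3:44117299-44122365 (plus strand), had 165 and 174 reads in NC and 252 and 266 in TYMP. It rose 1.54-fold (log2 fold change 0.62, SE 0.153, adjusted p = 0.0437), the call nearest to the threshold. Without NC replicate 1, TYMP replicate 1 or TYMP replicate 2 its adjusted p was 0.0727, 0.144 or 0.154, and with DESeq2 it was 0.164. On the deposited FPKM values ELF3-AS1, CCDC18-AS1 and ENSG00000261786 did not pass either (adjusted p = 0.129, 0.127 and 0.0956).

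Among the lncRNAs that fell, LNCAROD was by far the most abundant, and the table describes it as an activating regulator of DKK1. It lies at chr10:52450874-52755409 (minus strand) and shares no exon with another annotated gene. LNCAROD had 1994 and 1942 reads in NC and 1181 and 1337 in TYMP. Both TYMP libraries lay well below both NC libraries. It fell 1.55-fold, from 118 ± 0.986 to 76.0 ± 3.85 CPM (SD, n = 2; log2 fold change -0.63, SE 0.0894, adjusted p = 0.00156), and passed under each of the 15 alternatives. DKK1, a secreted inhibitor of Wnt signalling chosen here after its values were seen, ends 133 kb from LNCAROD on the other strand. DKK1 had 2851 and 3009 reads in NC and 1468 and 1644 in TYMP, and fell 1.87-fold (log2 fold change -0.90, SE 0.0864, adjusted p = 7.86e-05). Both genes thus fell, DKK1 by more, and the difference between their changes was not tested.

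A promoter of LNCAROD is shown because it is the most abundant lncRNA that fell. RefSeq and GENCODE place its start differently: the window below lies inside the GENCODE span given above, far from its 5′ end at 52755409, and does not show that end. The sequence comes from RefSeq, covers the 250 bases before and the 50 after the start annotated there (chr10:52470484-52470783, GRCh38.p14, minus strand), holds 36.0% G and C and 1 CpG, and had no match to any of the 7 motifs searched, so no base is in capitals.
LNCAROD: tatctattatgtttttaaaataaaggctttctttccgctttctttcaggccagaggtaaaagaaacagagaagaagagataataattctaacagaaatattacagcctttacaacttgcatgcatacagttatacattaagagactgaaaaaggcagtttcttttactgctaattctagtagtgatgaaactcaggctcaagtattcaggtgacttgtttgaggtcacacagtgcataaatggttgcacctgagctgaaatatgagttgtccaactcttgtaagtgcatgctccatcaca

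LINC01204, LINC00707 and LINC00941 are intergenic lncRNAs that also fell. LINC01204, at chrX:45505388-45630202 (plus strand), had 208 and 222 reads in NC and 102 and 91 in TYMP. Its decrease of 2.21-fold was the largest of the 5 (log2 fold change -1.14, SE 0.180, adjusted p = 0.00299), and on FPKM values the adjusted p was 0.0595. LINC00707, at chr10:6779549-6879450 (plus strand), had 340 and 430 reads in NC and 218 and 212 in TYMP. It fell 1.78-fold (log2 fold change -0.83, SE 0.156, adjusted p = 0.00944), its exons overlap 3 unnamed genes, and on FPKM values the adjusted p was 0.0907. LINC00941, known in human keratinocytes as a repressor of early differentiation, lies at chr12:30795458-30879268 (plus strand). It had 190 and 182 reads in NC and 70 and 113 in TYMP, a 2.02-fold fall (log2 fold change -1.02, SE 0.215, adjusted p = 0.0198). Its 2 TYMP libraries differed, and without TYMP replicate 1 the value was -0.74 (adjusted p = 0.121). The annotation holds a second entry under the same symbol with shared exons, so its reads could be split between the entries.

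ENSG00000259345, an unnamed lncRNA at chr15:38865322-39427195 (minus strand), had 148 and 142 reads in NC and 63 and 78 in TYMP. It fell 2.04-fold (log2 fold change -1.03, SE 0.207, adjusted p = 0.0148). Without TYMP replicate 1 the value was -0.91 (adjusted p = 0.0518). THBS1, the gene of the matrix protein thrombospondin-1, begins 154 kb beyond it, was picked after its values were seen, and fell 2.17-fold (log2 fold change -1.12, SE 0.0727, adjusted p = 3.69e-06).

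**Figure D3:**
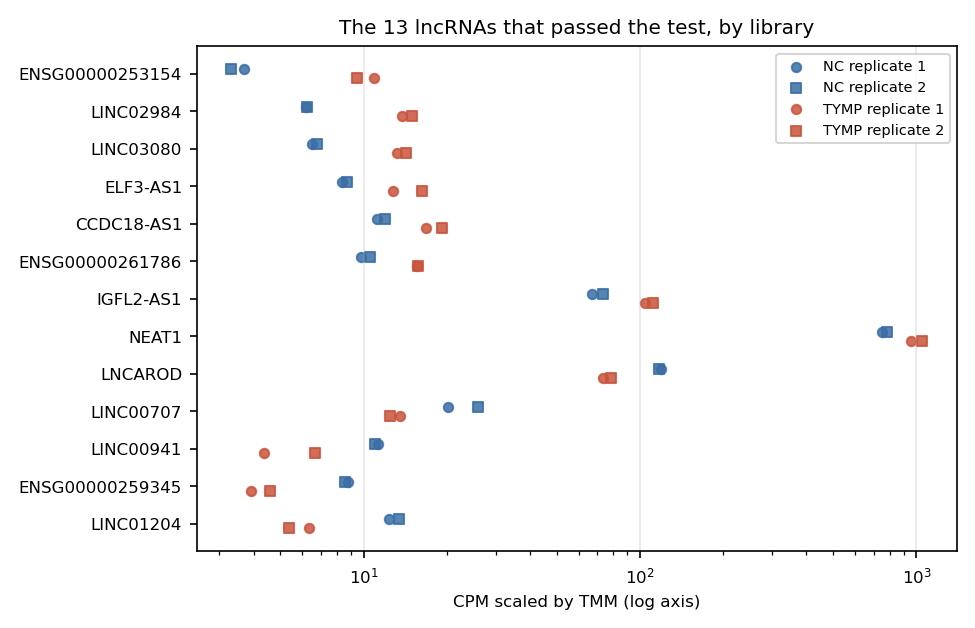
CPM scaled by TMM, on a log axis, of the 13 lncRNAs that passed the test, ordered by log2 fold change from 1.53 at the top to -1.14 at the bottom. Points are single libraries, blue for NC and red for TYMP, circles for replicate 1 and squares for replicate 2. In every row the 2 colours are apart.

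Both ELF3-AS1 and CCDC18-AS1 lie across protein-coding genes. ELF3-AS1 overlaps the exons of ELF3, an ETS-family transcription factor of epithelial differentiation, on the opposite strand. ELF3 had 943 and 760 reads in NC and 1764 and 1704 in TYMP, and rose 2.06-fold (log2 fold change 1.04, SE 0.111, adjusted p = 0.000186). Both genes of the pair rose, but their reads may be shared for the reason given above. ELF3-AS1 also overlaps RNPEP, an aminopeptidase gene, which had 1399, 1375, 1675 and 1593 reads and did not pass (log2 fold change 0.25, adjusted p = 0.206). CCDC18-AS1 overlaps CCDC18, a coiled-coil protein gene with 395, 535, 470 and 561 reads in the same order (log2 fold change 0.16, adjusted p = 0.710). Its start lies 137 bases from that of DR1, a repressor of transcription that binds the TATA-binding protein. DR1 had 1832, 1782, 1568 and 1757 reads (log2 fold change -0.11, adjusted p = 0.640), so neither coding gene passed while the antisense RNA rose. Exons of CCDC18 and of DR1 overlap those of CCDC18-AS1 on the opposite strand, so reads may be shared here too. The other called lncRNAs had no tested protein-coding gene across their span or with a start within 5 kb.

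The 3 promoters below come from RefSeq (GRCh38.p14), each with 250 bases before and 50 after the annotated start of a called lncRNA. They are shown to set the CpG-rich start of CCDC18-AS1, close to that of DR1, beside 2 others. That of CCDC18-AS1 (chr1:93345762-93346061, minus strand) holds 68.3% G and C and 30 CpG, that of ELF3-AS1 (chr1:202010304-202010603, minus strand) 59.0% and 6, and that of LINC00941 (chr12:30795431-30795730, plus strand) 66.0% and 21. Capitals mark motif matches on either strand, with positions counted from the RefSeq start. The ETS core CCGGAAG lay at -91 to -85 and, reversed, at -46 to -40 of CCDC18-AS1. The TATA box TATAAA, reversed, lay at -205 to -200 of ELF3-AS1, and the SP1/KLF box GGGCGGG at -199 to -193 of LINC00941. GENCODE begins all 3 genes further upstream, inside these windows, so the matches of CCDC18-AS1 and LINC00941 lie within their GENCODE spans.
CCDC18-AS1: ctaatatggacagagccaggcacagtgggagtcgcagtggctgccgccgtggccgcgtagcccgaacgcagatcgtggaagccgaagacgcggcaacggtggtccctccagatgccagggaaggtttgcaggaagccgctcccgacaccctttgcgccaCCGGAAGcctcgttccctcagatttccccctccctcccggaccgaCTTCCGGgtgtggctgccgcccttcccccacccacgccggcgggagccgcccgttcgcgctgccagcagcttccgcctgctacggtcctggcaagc
ELF3-AS1: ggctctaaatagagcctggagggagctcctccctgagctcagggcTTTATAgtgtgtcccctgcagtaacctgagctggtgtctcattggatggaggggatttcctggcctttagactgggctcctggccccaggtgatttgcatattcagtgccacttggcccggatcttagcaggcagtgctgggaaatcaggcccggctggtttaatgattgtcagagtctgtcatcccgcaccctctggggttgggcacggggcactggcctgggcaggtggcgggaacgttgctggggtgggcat
LINC00941: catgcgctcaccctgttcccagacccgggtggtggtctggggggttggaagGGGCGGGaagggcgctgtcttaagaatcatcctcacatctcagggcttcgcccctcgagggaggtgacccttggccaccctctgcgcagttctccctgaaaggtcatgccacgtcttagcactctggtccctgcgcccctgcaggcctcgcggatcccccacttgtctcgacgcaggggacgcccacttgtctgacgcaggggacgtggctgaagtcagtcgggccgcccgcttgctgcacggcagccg

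Of the 313 lncRNAs, 175 had a promoter of this length in RefSeq. The ETS core was present in 18.3% of them and in 10.7% of all 27305 promoters in the table, GGGCGGG in 44.0% and 32.9%, and the NRF1 site in 2.86% and 1.36%. The TATA box TATAAA was less common, in 8% against 12%. The AP-1 site TGACTCA was in 6.29% against 4.92%, the CRE TGACGTCA in 1.14% against 1.98% and the TEAD site GGAATGT in 2.86% against 3.48%. Both strands were searched for each motif, no motif contains another, and the median G and C content was 63.7% in the lncRNA promoters and 58.3% in all promoters. The 27305 promoters were not limited to genes with reads here, and no set matched on expression was compared. A match is a run of letters and not evidence of binding.

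Beyond the called lncRNAs, 154 of the 313 had at least 1 tested protein-coding gene across their span or with a start within 5 kb, in 191 pairs. The 2 changes had the same sign in 103 pairs. Across pairs Pearson's r was 0.25 and Spearman's rho 0.19, given as a description of pairs that share libraries and, where exons overlap, may share reads. Over the 82 pairs with no shared exon sequence the values were 0.17 and 0.09. Divergent starts made up 47 pairs, in which no coding gene was called, against 3.32% of all tested genes. With so few pairs no difference from that share is read.

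Coding partners were called in 5 of the 191 pairs, against 3.32% of all tested genes, so this count is not read as a trait of neighbours. All 5 pairs had overlapping exons on opposite strands, and 4 of the lncRNAs in them did not pass. These pairs were named after their values were seen. The first pair, ELF3-AS1 and ELF3, is given above. IRF1-AS1 had 90, 79, 122 and 151 reads, a difference of 0.70 on the log2 scale that did not pass (SE 0.206, adjusted p = 0.1005), while IRF1, an interferon-response transcription factor, rose by 0.40 (SE 0.0937, adjusted p = 0.0336). WAKMAR2, known to affect keratinocyte migration and inflammation in wounds, had 111, 145, 62 and 89 reads and a difference of -0.75 (SE 0.237, adjusted p = 0.127), which passed without NC replicate 1 (-0.94, adjusted p = 0.0205) or without TYMP replicate 2 (adjusted p = 0.0367). TNFAIP3, the gene of the NF-kB inhibitor A20, overlaps it by 1045 bases and fell by 0.52 on the log2 scale (SE 0.0789, adjusted p = 0.00217). KRT10, a keratin of differentiating layers, rose by 0.56 (SE 0.107, adjusted p = 0.0106) beside 0.13 for KRT10-AS1 (adjusted p = 0.718). GARS1, the glycyl-tRNA synthetase, fell by 0.42 on the log2 scale (SE 0.0752, adjusted p = 0.00704) beside 0.13 for GARS1-DT (adjusted p = 0.693), the 1 pair of the 5 with opposite signs.

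**Figure D4:**
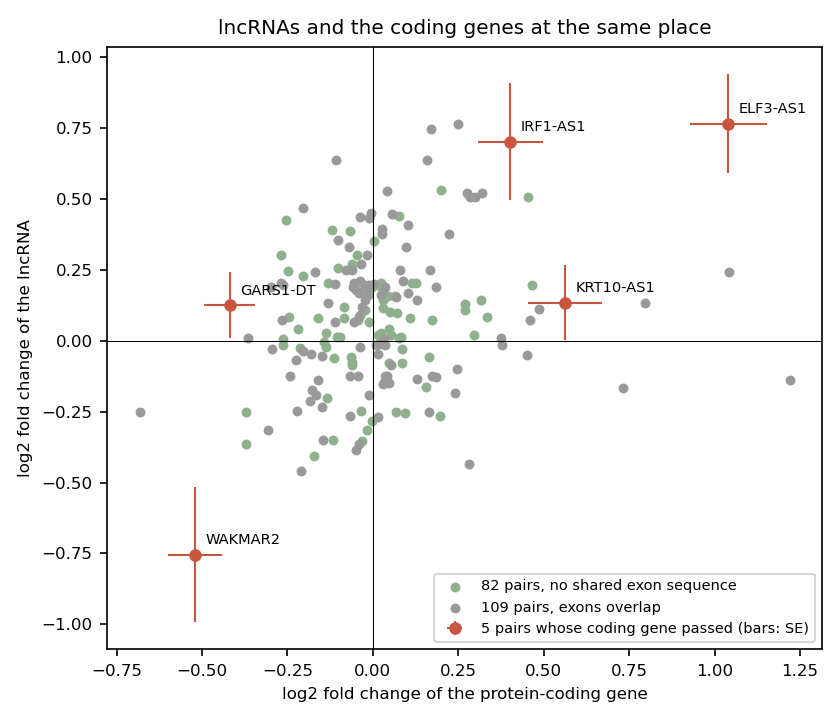
Log2 fold change of each lncRNA, on the vertical axis, against that of the protein-coding gene across its span or with a start within 5 kb, on the horizontal axis, for pairs with both genes tested and the coding gene within 3 of 0. Green points share no exon sequence, grey points do, and red points with bars (SE) are the 5 pairs whose coding gene passed. ELF3-AS1 is the red point farthest to the right, at 1.04 and 0.76.

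Most snoRNA hosts had lower values in TYMP than in NC, though none passed the test. Of 32 listed genes 24 were among the 313, 0 were called (3.32% of all tested genes were), and 19 had negative and 5 positive values. Their median was -0.13 on the log2 scale, against -0.01 for all tested genes, of which 7326 of 14380 were negative. SNHG17 had 732, 667, 570 and 499 reads (here and below in the order NC replicate 1, NC replicate 2, TYMP replicate 1, TYMP replicate 2), a difference of -0.37 (SE 0.123, adjusted p = 0.150). SNHG1, host of several box C/D snoRNAs, had 2656, 2709, 2215 and 2415 reads (-0.20, SE 0.0817, adjusted p = 0.257). In both, the TYMP libraries lay below the NC libraries without overlap. SNHG15, with 889, 772, 655 and 734 reads, and SNHG7, with 1154, 1029, 969 and 869, were at -0.25 and -0.23 (adjusted p = 0.337 and 0.363). SNHG29 and GAS5, the hosts with the most reads, were at 0.01 and -0.08. The number of negative values was 19 under every other scaling, tool and filter and between 16 and 18 when 1 library was left out. With the replicate number as a block 3 of the 24 were called, against 2024 of all 14380 tested genes.

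The genes of the core proteins that package snoRNAs were tested as partners, at the level of RNA. Of 12 such genes 11 were tested and all 11 had negative values, against 7326 of 14380 for all tested genes. Their median was -0.24, against -0.01 for all tested genes. Without NC replicate 1, 10 of 11 were negative, and without TYMP replicate 2, 10 of 12. Without NC replicate 2 or TYMP replicate 1, 11 of 12 were. NOP56, a box C/D core protein, was the only one called. Of all tested genes 3.32% were called, and with a list this short no difference from that share is read. NOP56 had 7383 and 6918 reads in NC and 5698 and 5616 in TYMP, and fell 1.25-fold (log2 fold change -0.32, SE 0.0787, adjusted p = 0.0420). It lost the call with upper quartile scaling, on FPKM values, and without NC replicate 1, TYMP replicate 1 or TYMP replicate 2. NOP58 and DKC1, core proteins of the box C/D and H/ACA particles, were at -0.28 and -0.28 (adjusted p = 0.0970 and 0.0829).

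Some snoRNA hosts are known to begin with a C followed by pyrimidines, a start known from ribosomal protein genes, where it places translation under growth control. A C and a run of at least 5 pyrimidines from the annotated start was found in 4.04% of all 27305 RefSeq promoters and in 39 of 63 promoters of RPL and RPS genes, or 61.9%. It was found in 5 of the 22 lncRNAs with an annotated snoRNA inside them and a RefSeq promoter, or 22.7%, and in 2 of the other 153, or 1.31%. The lncRNAs with an annotated snoRNA inside are not the same set as the listed hosts above. GAS5 is listed but is not in the annotated set, so the other 153 may include known hosts. The starts are shown to compare these 5 hosts with SNHG17, the host with the smallest p, which lacks it. Each line gives 15 bases before and 25 from the annotated start (RefSeq, GRCh38.p14), with the run in capitals. The windows are chr1:28581849-28581888 (minus strand), chr5:139274086-139274125 (plus), chr16:2155334-2155373 (minus), chr20:49278627-49278666 (plus), chr5:9546185-9546224 (plus) and chr20:38435304-38435343 (minus), in the order of the lines.
SNHG12: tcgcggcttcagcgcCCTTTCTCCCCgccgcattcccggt
SNHG4: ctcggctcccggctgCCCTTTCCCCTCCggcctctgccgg
SNHG19: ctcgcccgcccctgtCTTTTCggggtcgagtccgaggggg
ZFAS1: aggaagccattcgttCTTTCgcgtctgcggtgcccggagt
SNHG18: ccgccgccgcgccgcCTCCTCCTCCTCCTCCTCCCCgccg
SNHG17: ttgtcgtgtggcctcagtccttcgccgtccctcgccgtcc
SNHG12, SNHG4, SNHG19 and ZFAS1 were at -0.17, -0.04, -0.16 and -0.14 on the log2 scale, SNHG18, with the longest run, was at 0.14, and none of the 5 passed.

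**Figure D5:**
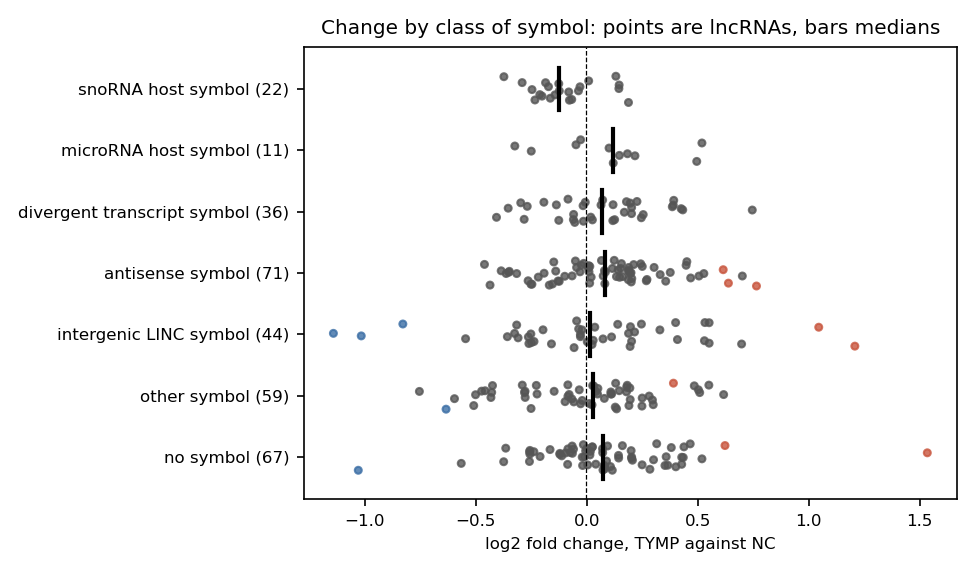
Log2 fold change, TYMP against NC, of 310 of the 313 lncRNAs by class of symbol, leaving out the 3 intronic transcripts. Each point is 1 lncRNA, red where higher and blue where lower in TYMP by the test, black bars are class medians and the dashed line is the median of all tested genes. The median lies at -0.12 for the 22 snoRNA host symbols and at 0.12 for the 11 microRNA host symbols.

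No microRNA host passed the test. Of 43 listed hosts 13 were among the 313, with 7 positive and 6 negative values and a median of 0.12. The sign of the median changed with the definition of a host. The 17 of the 313 with an annotated microRNA hairpin inside had 7 positive and 10 negative values and a median of -0.05. Over all tested genes 3.32% were called, and a count of 0 in a list this short is not read as a difference from that share. FTX, a host gene of the X-inactivation centre, had 363, 473, 573 and 608 reads, a difference of 0.51 (SE 0.139, adjusted p = 0.0730). It passed without NC replicate 2, at 0.72 (adjusted p = 0.000382). PVT1, the neighbour of MYC, had 258, 278, 146 and 229 reads, a difference of -0.51 (SE 0.186, adjusted p = 0.201), and passed without TYMP replicate 2 (-0.83, adjusted p = 0.0196). MIR4435-2HG had 1138, 1091, 904 and 955 reads (-0.25, adjusted p = 0.235) and has a near-identical copy, CYTOR, so their reads may be split. MIR34AHG, whose transcription p53 activates, had 87, 95, 116 and 139 reads (0.50, adjusted p = 0.268). MIR205HG had 3697, 4257, 4078 and 5118 reads (0.22, adjusted p = 0.350), and passed without NC replicate 2 (adjusted p = 0.0468).

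Inside the spans of 17 of these lncRNAs lie 51 mature microRNAs of RefSeq. Polyadenylated RNA shows the host transcript and not the mature microRNA, so the sequences show what each host can give rise to and carry no level. A selection of 7 is printed 5′ to 3′ with the seed (bases 2 to 8) in capitals: 1 from MIR205HG, the most abundant host, 2 from FTX, the host with the smallest p, and 4 from DLEU2 and MIR497HG. The last 4 share the seed AGCAGCA across 2 hosts.
hsa-miR-205-5p: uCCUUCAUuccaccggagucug
hsa-miR-374b-5p: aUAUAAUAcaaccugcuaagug
hsa-miR-421: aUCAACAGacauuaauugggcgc
hsa-miR-15a-5p: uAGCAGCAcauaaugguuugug
hsa-miR-16-5p: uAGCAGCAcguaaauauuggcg
hsa-miR-195-5p: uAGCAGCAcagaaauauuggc
hsa-miR-497-5p: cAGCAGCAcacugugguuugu
DLEU2, the host of the miR-15a and miR-16 pair, had 148, 165, 137 and 156 reads, and MIR497HG, the host of the miR-195 and miR-497 pair, had 138, 165, 154 and 188. Their differences of -0.09 and 0.18 did not pass (adjusted p = 0.889 and 0.719), and the groups overlapped in both.

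Of the lncRNAs with roles in nuclear architecture, 6 of 12 listed were among the 313, and NEAT1 alone passed. The shares called were 3.32% of all tested genes and 4.12% of those with at least 400 reads. For this list and the lncRNA lists below, all short, no difference from these shares is read. CHROMR, KCNQ1OT1, NORAD and OIP5-AS1 lay between 0.11 and 0.25, and CHASERR was at -0.02. Of 18 lncRNAs listed for epidermal differentiation and wounds 8 were among the 313, with LINC00941 called lower. UCA1 had 1146, 1144, 1353 and 1436 reads, higher in both TYMP libraries, but did not pass (0.30, SE 0.0919, adjusted p = 0.121). WAKMAR2 was at -0.75 and CYTOR at -0.43, and neither passed. TINCR, which human keratinocytes need to differentiate and which the table calls protein coding, had 276, 210, 450 and 410 reads and rose 1.79-fold (log2 fold change 0.84, SE 0.155, adjusted p = 0.00842). In the same libraries KRT5, KRT14 and DSG3 rose as given above, while the other 7 keratinocyte markers did not pass. The part of keratinocyte state in these changes was not tested.

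IRF1-AS1 was the only 1 of 21 inflammation and interferon lncRNAs among the 313. Of the 17 stress and p53 lncRNAs, PVT1, MIR34AHG and GAS5 were among them and none passed. Of the 20 growth and cancer lncRNAs 7 were among them and none passed, and neither count is read as a difference from the shares given above. LINC01133 came nearest, with 132, 98, 177 and 193 reads and both TYMP libraries above both NC libraries (0.70, SE 0.190, adjusted p = 0.0730). It passed without NC replicate 1 (0.92, adjusted p = 0.00574).

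Partners in RNA turnover were looked at as well. None of 17 tested nonsense-mediated decay genes, 17 microRNA processing genes and 17 nuclear RNA decay genes passed, against 3.32% called among all tested genes, and with lists this short no difference from that share is read. Their medians were -0.05, -0.05 and -0.11 on the log2 scale, the second turning to 0.01 on FPKM values. The positive values numbered 2, 7 and 2, against 7054 of 14380 for all tested genes.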

How the data were processed

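Polyadenylated RNA of 4 HaCaT libraries, 2 labelled NC and 2 labelled TYMP, was prepared from 1.5 µg of RNA with an Illumina kit, per the labels' protocols. The submitters' processing notes name HISAT2, HTSeq 0.13.5 and GRCh38; no source used here gives the strand setting or annotation release. The table deposited by the authors gives raw read counts per gene and FPKM, computed by the authors per kilobase of gene and scaled to library size; all 87668 FPKM values above 0 match a whole-number gene length within 0.001 bases.

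LncRNA rows with at least 400 reads were kept. The members and gene lists were chosen with earlier results of these data known. Counts were fitted with edgeR 4.0.16 (R 4.3.3): filterByExpr, TMM scaling, robust quasi-likelihood F test, no covariate, p adjusted by Benjamini and Hochberg over 14380 genes, called under 0.05. CPM are scaled by TMM. Levels between genes are compared as FPKM. The test was checked on simulated data. Depth was 16209663 to 17000821 reads, and 21560 to 22236 genes had a read. Replicates differed beyond sampling noise (chi-square per degree of freedom 7.39 in NC and 5.84 in TYMP). Positions and overlaps come from GENCODE 29, and sequences from RefSeq.

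Named were TYMP, the 15 lncRNAs with the highest mean FPKM, up to 15 rising and 15 falling called lncRNAs, up to 4 per lncRNA list by smallest p, the 3 rows on each side of the 400-read limit, coding genes across a called lncRNA or starting within 5 kb of it, and up to 3 called genes per partner list. Others are marked as picked after their values were seen. Alternatives were other scalings, filters and member limits, DESeq2 1.42.0, limma 3.58.1 (voom, or log2 of FPKM plus a pseudocount of 1 or 0.1 for genes of mean FPKM at least 1, a scale that understates changes of low genes), the replicate number as a block, TYMP left out, and each library left out.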

Additional observations from a re-analysis of the deposited data

How the results depend on the processing

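The 8 lncRNAs called higher in TYMP became 5 with DESeq2, 15 with no filter beyond 1 read, 2 on log2(FPKM + 1), 2 on log2(FPKM + 0.1), 2 among those with at least 1000 reads and 5 among those without exon overlap. The 5 called lower became 1 and 1 on the 2 FPKM scales, 2 among those with at least 1000 reads and 3 among those without exon overlap. Over all genes 478 calls became 732 with no filter, 215 on log2(FPKM + 1) and 210 on log2(FPKM + 0.1). The last 2 member limits and the FPKM minimum test fewer lncRNAs; otherwise the cause was not tested. When 1 library was left out, calls ranged from 4 to 15 higher, from 4 to 8 lower and from 393 to 716 over all genes; the lowest count of higher calls came without TYMP replicate 2 and the highest without NC replicate 2, and the highest count of lower calls came without NC replicate 1. None of the 13 called lncRNAs changed sign under the alternatives in which it was tested. Among the named lncRNAs that were not called, at least 7 did: SNHG29, DHCR7-DT, ZDHHC12-DT, ANKRD10-IT1, ENSG00000289194, ENSG00000290018 and ENSG00000291075. Not every other uncalled lncRNA named above, SNHG4 and CHASERR among them, was followed in this way. The median log2 fold change of the lncRNAs lay between -0.01 and 0.08.

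The deviations of libraries with the same replicate number correlated at 0.118, over only 2 pairs, so the samples share a number and are not shown to be paired. With the replicate number as a block, calls rose to 29 higher and 21 lower, and to 2024 over all genes. All 13 lncRNAs called without the block were among these 50. All 10 DESeq2 calls and all 3 FPKM calls were among the 13 as well. In the lists above, the block called 3 of 24 snoRNA hosts, 4 of 13 microRNA hosts, 3 of 14 paraspeckle genes and 5 of 11 snoRNA core protein genes. It called 2 of 17 nonsense-mediated decay genes, 5 of 17 microRNA processing genes and 3 of 17 nuclear RNA decay genes. With lists this short no difference from the share over all genes is read. Depth limits the low lncRNAs: with the median standard error of 0.171, 2 libraries a group leave small differences undetectable, which does not show that they are absent.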

Other observations

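The libraries of a group also differed from each other. Of the 313 lncRNAs, 128 (40.9%) were higher in replicate 2 than in replicate 1 of both groups and 51 (16.3%) were higher in replicate 1 of both. Of all tested genes the shares were 31.8% and 33.1%. Among the 24 lncRNAs with an annotated snoRNA inside them the counts were 4 and 8. These differences were not tested, and the replicate numbers are not shown to pair libraries.

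EIF4A3, a core protein of the exon junction complex that serves nonsense-mediated decay, had 68 reads in NC replicate 1, 722 in NC replicate 2, 36 in TYMP replicate 1 and 45 in TYMP replicate 2, so 1 library stood apart from the other 3. FBL, the methyltransferase of box C/D snoRNA particles, held only 36, 36, 27 and 20 reads. Both were singled out after their values were seen.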
